A study of Mus musculus with 11 samples.

Results

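The genes described here are 35 endothelial identity genes, that is, genes that mark the cells lining blood and lymphatic vessels. They were taken as a list of symbols, and each symbol was matched to 1 Ensembl identifier in the deposited gene counts. They make up 35 of the 55536 genes counted, and all 35 passed the filter on low counts. By role they were 8 receptors, 9 junction and surface proteins, 6 transcription factors, 4 secreted or matrix proteins, 4 genes of vessel function and 4 genes that mark lymphatic vessels.

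RNA was sequenced from 11 bulk libraries of dorsal epidermal cells, each pooled from 2 male CD4Cre R26-tdT mice on a C57Bl6/N background. In these mice a cell that has switched on Cre under the CD4 promoter keeps the tdT reporter for good, as do its progeny, so tdT reports history and not a present cell type. The control groups carried both alleles as well. Cells were sorted from a CD49f+CD34+ gate into Sca-1neg tdT+ (3 libraries), Sca-1neg tdT- (3 libraries), Sca-1+ tdT+ (3 libraries) and Sca-1+ tdT- (2 libraries), and tdT+ and tdT- cells are called traced and untraced below. Replicate 1 of each group came from mice aged 29 weeks and the other replicates from mice aged 32 weeks. The labels say that mice were pooled and do not say whether different libraries of a replicate number came from the same mice, so p-values measure the spread between these libraries.

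Endothelial cells are held together by VE-cadherin (Cdh5) and Pecam1 and respond to VEGF through Kdr and Flt1 and to angiopoietins through Tek. ETS factors such as Erg and Fli1 and SOX F factors (Sox7, Sox17, Sox18) maintain this programme. Lymphatic vessels branch off under Prox1 and depend on the VEGF-C receptor Flt4. Endothelial cells also carry CD34, CD49f (Itga6) and Sca-1 (Ly6a), the proteins of the sort gate used here for epidermal cells. Some members are not confined to endothelium: Prox1 is also a factor of hepatocytes, Lyve1 and Flt4 are also made by the sinusoidal endothelium of the liver, and Fli1, Tal1, Pecam1, Vwf and Mmrn1 are also made by blood cells or platelets.

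Promoters are shown for 4 members that were highest in different libraries: Flt1, Eng and Tek in untraced Sca-1+, and Prox1 in 3 Sca-1neg libraries described below. All 4 lay lower in traced than in untraced Sca-1+ libraries. RefSeq promoter entries (build GRCm38.p6) matched 16 of the 35 members, with 22 promoters in all. Each line gives the 250 bases before the annotated start, 5′ to 3′ along the gene, on the plus strand for Eng and Tek and the minus strand for Flt1 and Prox1. These 4 windows overlap no annotated exon. Capitals mark GGAAG, the core recognised by ETS factors, or its reverse complement.
Flt1, chr5:147726012-147726261: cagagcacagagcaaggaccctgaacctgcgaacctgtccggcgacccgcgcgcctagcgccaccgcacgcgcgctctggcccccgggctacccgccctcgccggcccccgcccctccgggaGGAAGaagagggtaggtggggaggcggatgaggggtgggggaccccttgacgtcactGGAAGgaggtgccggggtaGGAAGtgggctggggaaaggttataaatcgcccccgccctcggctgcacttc
Eng, chr2:32646345-32646594: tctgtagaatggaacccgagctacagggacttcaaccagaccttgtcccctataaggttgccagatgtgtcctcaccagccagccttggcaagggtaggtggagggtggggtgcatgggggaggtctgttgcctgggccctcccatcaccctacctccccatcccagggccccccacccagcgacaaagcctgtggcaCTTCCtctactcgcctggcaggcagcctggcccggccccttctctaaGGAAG
Tek, chr4:94739039-94739288: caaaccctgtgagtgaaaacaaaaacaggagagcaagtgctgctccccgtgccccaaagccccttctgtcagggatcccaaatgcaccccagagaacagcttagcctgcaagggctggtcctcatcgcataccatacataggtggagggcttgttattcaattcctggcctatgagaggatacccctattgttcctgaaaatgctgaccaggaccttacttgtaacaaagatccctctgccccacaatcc
Prox1, chr1:190170828-190171077: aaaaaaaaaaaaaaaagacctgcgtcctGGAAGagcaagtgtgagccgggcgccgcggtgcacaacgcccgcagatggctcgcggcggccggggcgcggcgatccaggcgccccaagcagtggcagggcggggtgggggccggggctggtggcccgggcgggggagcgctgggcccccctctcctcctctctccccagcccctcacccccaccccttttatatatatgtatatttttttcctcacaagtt
The core was found 3 times in the Flt1 window, 2 times in that of Eng, 1 time in the Prox1 window shown and 0 times in that of Tek. A second Prox1 window, not shown because it overlaps 1 annotated exon, held the core 3 times. The core was present in 17 of the 22 member windows (77.3%) and in 64.1% of the 32851 windows of the same length in the table. Matches of 8 motifs in the member windows had been counted before this core was picked. Among the others, the SOX core AACAAT was present in 18.2% of member windows and 9.42% of all windows, and the GATA motif GATAAG in 4.55% and 6.55%. These are letter matches on both strands and describe no binding.

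Total counts ran from 17409131 to 46542177 per library. In all 11 libraries keratinocyte genes exceeded the members: 10 bulge and basal keratinocyte genes summed to between 20620 and 35960 CPM (counts scaled to library size by TMM). The gap was narrowest in untraced Sca-1+, where these genes summed to 22600 and 26660 CPM and the members to 7723 and 8420 CPM. The tracer entry stood at 133 to 307 CPM in 5 of the 6 tdT+ libraries and at 2.54 to 4.89 CPM in the tdT- libraries, but at 2.05 CPM in the library labelled replicate 2 of Sca-1neg tdT+. That library, traced Sca-1neg replicate 1 and untraced Sca-1neg replicate 2 held 4390 to 9560 CPM of Alb, the hepatocyte albumin gene, against 3.04 to 37.3 CPM in the other 8. The same 3 held 211 to 1320 CPM of Xist, against 0.40 to 1.27 CPM in the other 8, although all mice are labelled male. Results that rest on these 3 libraries are given with and without them.

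The members were most abundant in the untraced Sca-1+ libraries. Their summed level was 7723 and 8420 CPM there. It was 193, 300 and 337 CPM in the 3 traced Sca-1+ libraries. In untraced Sca-1neg it was 154, 494 and 176 CPM in replicates 1 to 3. In traced Sca-1neg it was 452 CPM in replicate 1, 1930 CPM in the library labelled replicate 2 and 67.1 CPM in replicate 3. The untraced Sca-1+ libraries thus lay above all others, the library labelled replicate 2 of Sca-1neg tdT+ came next, and the 2 remaining libraries with Alb above 1000 CPM followed. A level of at least 1 RPKM (CPM per kilobase of exon) was reached by 34 and 33 of the 35 members in the untraced Sca-1+ libraries. It was reached by 33 members in the library labelled replicate 2 of Sca-1neg tdT+, by 17 and 25 in the other libraries with Alb above 1000 CPM, and by 3 to 18 in the remaining 6. In bulk libraries, fewer cells of a type and less RNA per cell cannot be told apart.

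**Figure D1:**
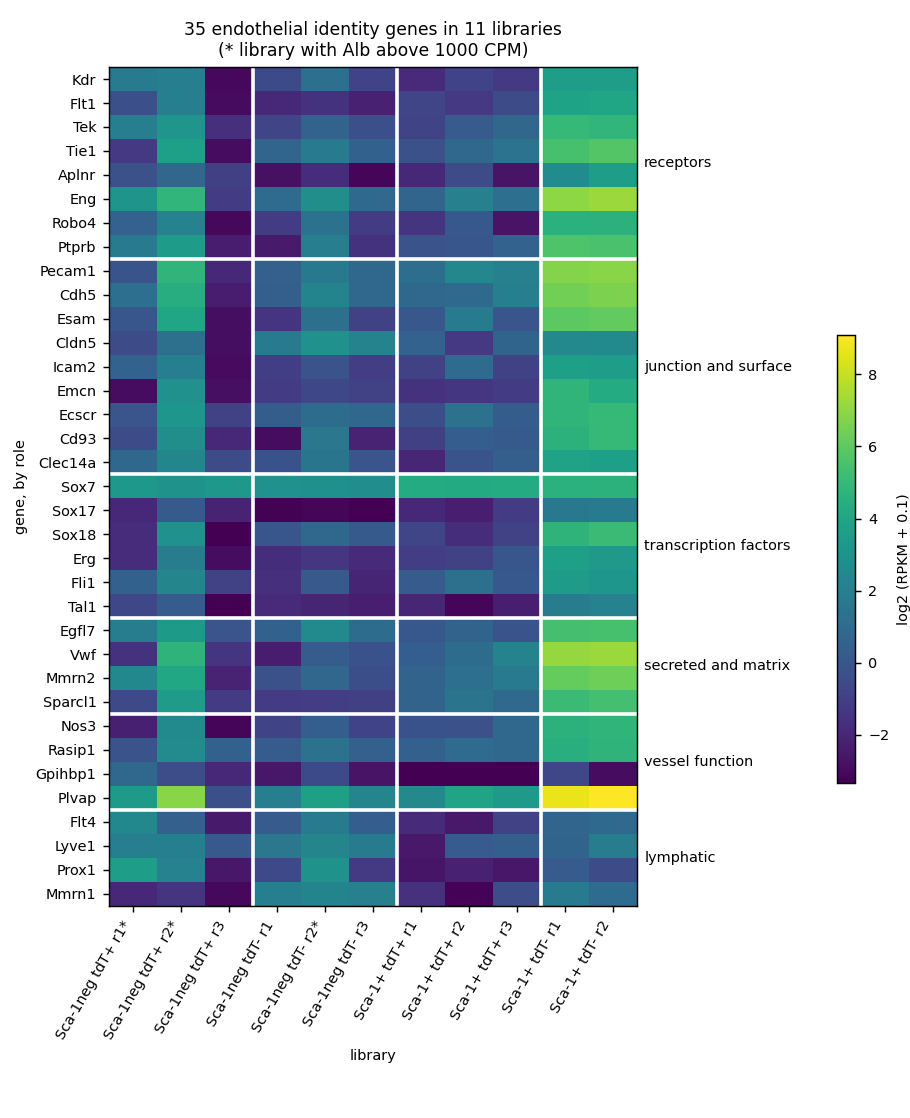
Level of each of the 35 members (rows, grouped by role) in each of the 11 libraries (columns), as log2 of RPKM plus 0.1. The 2 untraced Sca-1+ columns are bright across nearly all blood vessel genes, with Plvap at 484 RPKM on average, and the library labelled replicate 2 of Sca-1neg tdT+ shows the same rows at a lower level.

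Per length, the order of levels in the untraced Sca-1+ libraries was led by Plvap, a protein of the diaphragms that span fenestrae and caveolae, at 484 ± 81.4 RPKM (SD, n = 2). Vwf, the clotting glycoprotein stored in endothelial granules, followed at 141 ± 6.64 RPKM. The TGF-beta coreceptor Eng stood at 137 ± 16.8, Pecam1 at 114 ± 4.51 and Cdh5 at 93.3 ± 9.62 RPKM. Vwf and Eng did not differ beyond their spread, while Plvap lay above both in each library. At the low end were the 4 lymphatic genes, from Prox1 at 0.862 ± 0.322 to Lyve1 at 2.63 ± 1.59 RPKM, and Gpihbp1, which carries lipoprotein lipase across the endothelium of fat and muscle capillaries, at 0.283 ± 0.354 RPKM. The 2 libraries were close for Kdr, Vwf and Pecam1 (replicate 2 over replicate 1: 0.999, 1.07 and 1.06) and farther apart for Aplnr (1.89) and Lyve1 (2.5).

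Within the Sca-1+ gate, traced cells were compared with untraced cells, the comparison in which all 35 members had the same direction. The traced libraries lay below the untraced ones without overlap for 35 of 35 members, against 17.2% of all 20307 genes tested that were lower without overlap. The median log2 fold change of the members was -4.90, against 0.04 for all genes. The adjusted p of edgeR's quasi-likelihood test with Benjamini-Hochberg adjustment over all genes was under 0.05 for 2 of the 35, Egfl7 and Rasip1, both lower, against 2.34% of all genes lower and 0.394% higher. An unadjusted p under 0.05 was found for 32 members in all, against 14.5% of all genes.

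Egfl7, a matrix protein secreted by endothelial cells, stood at 3.44, 5.17 and 2.94 CPM in the traced and at 152 and 159 CPM in the untraced Sca-1+ libraries. Its log2 fold change was -5.34 ± 1.03 (SE; edgeR adjusted p = 0.0368). Rasip1, a Ras-interacting protein needed for vessel lumens, stood at 4.13, 6.25 and 5.57 CPM against 69.6 and 86.5 CPM. Its log2 fold change was -3.88 ± 0.77 (edgeR adjusted p = 0.0312). On leaving out 1 library at a time, the call of Rasip1 was lost in 7 of 11 cases (each of the 5 Sca-1+ libraries and untraced Sca-1neg replicates 1 and 3) and that of Egfl7 in 8 of 11 (the same and traced Sca-1neg replicate 1), while the log2 fold changes stayed between -4.06 and -3.72 and between -5.66 and -5.18. Exons of both genes overlap those of other genes, and reads there may be shared, since the strand setting of the counting is not given in the sources used here.

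Pecam1 stood at 13.4, 32.9 and 25.3 CPM in traced and at 688 and 728 CPM in untraced Sca-1+ libraries. Its fitted difference was -4.89 ± 1.75 on the log2 scale and did not pass (edgeR adjusted p = 0.253). Fli1 stood at 3.81, 7.89 and 3.36 CPM against 38.1 and 31.1 CPM, a log2 fold change of -2.79 ± 1.0 (edgeR adjusted p = 0.229). In both genes the 2 groups did not overlap. The standard errors rest on a spread estimated over all 11 libraries, in which both genes varied most within traced Sca-1neg (Pecam1 from 1.05 to 175 CPM).

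Sox7 stood apart from its SOX F relatives. It was at 65.6, 61.9 and 64.1 CPM in the traced and 78.7 and 81.0 CPM in the untraced Sca-1+ libraries, a mean of 63.9 ± 1.85 (SD, n = 3) against 79.9 ± 1.61 (n = 2). Sox18 stood at 0.826, 0.341 and 0.723 CPM against 43.3 and 56.0 CPM in the same libraries, and Sox17 at 0.826, 0.511 and 1.76 CPM against 14.8 and 16.7 CPM. Sox7 made up 24.5% to 41.2% of the summed member RPKM in the traced Sca-1+ libraries and 1.41% to 1.56% in the untraced ones. Its groups did not overlap, but they lay far closer than those of Sox17 and Sox18.

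Without the 3 libraries with Alb above 1000 CPM, all of which are Sca-1neg, the same Sca-1+ libraries were compared with a spread estimated from 8 libraries. The members' median log2 fold change was -4.97, and 31 of 35 passed, all lower, against 5.15% of the 21477 genes then tested. All 8 receptors, all 9 junction and surface genes and all 4 secreted or matrix genes passed. So did 5 of 6 transcription factors (all but Sox7), 3 of 4 vessel function genes (all but Gpihbp1) and 2 of 4 lymphatic genes (Flt4 and Prox1). The log2 fold change was -4.96 ± 0.33 for Pecam1 (edgeR adjusted p = 1.586e-05), -5.41 ± 0.28 for Egfl7 (3.874e-06) and -2.86 ± 0.39 for Fli1 (0.001505). With DESeq2's Wald test on all 11 libraries, 17 members passed, all lower, against 5.42% of all genes.

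**Figure D2:**
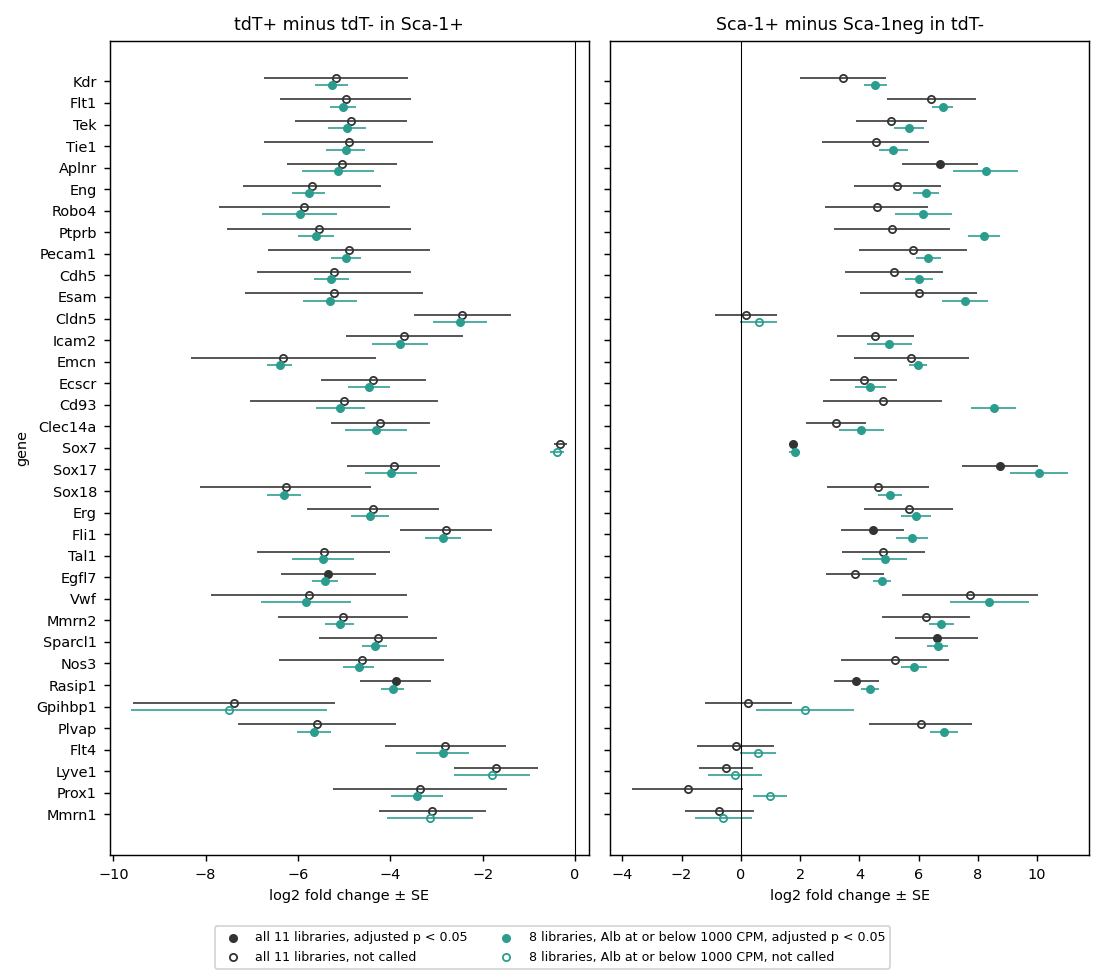
Log2 fold change with its standard error for each member in traced against untraced Sca-1+ cells (left) and in Sca-1+ against Sca-1neg untraced cells (right), from all 11 libraries (black) and from the 8 libraries without high Alb (green), with filled points where the adjusted p was under 0.05. All 35 points lie below 0 on the left, and the number of filled points on the left goes from 2 to 31 between the fits while the values change little.

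Gpihbp1 had no count in any traced Sca-1+ library. It stood at 1.36 and 0.0838 CPM in the untraced Sca-1+ libraries, or 43 and 2 counts. A count of 0 over the 3 traced libraries allows up to 3 counts, or 0.0402 CPM. The 2 counts of untraced replicate 2 are fewer than 3, although at the depth of that 1 library they stand above 0.0402 CPM. The difference thus rests mainly on replicate 1, and no fold is given.

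The summed leukocyte genes ran the other way in the same libraries. The 8 leukocyte genes summed to 342, 625 and 514 CPM in the traced and 111 and 251 CPM in the untraced Sca-1+ libraries, with 1 of the 8 (Ikzf1) past the threshold, and Ptprc, the pan-leukocyte CD45 gene, stood at 141, 229 and 180 CPM against 40.4 and 58.5 CPM. Of the 10 bulge and basal keratinocyte genes, 3 passed as lower in the same comparison, Cd34, Lhx2 and Lgr5, against 2.34% of all genes, and 0 as higher. The list did not fall as a whole: its median log2 fold change was 0.03. It summed to 35270, 35960 and 31050 CPM in traced and 22600 and 26660 CPM in untraced Sca-1+ libraries. Krt5 and Krt14 lay higher in the traced ones, Krt14 at 11350, 14630 and 9306 CPM against 6293 and 7203 CPM. The gate gene Cd34 is expressed by both bulge keratinocytes and endothelial cells. It stood at 24.3, 35.7 and 22.4 CPM in traced and 320 and 383 CPM in untraced Sca-1+ libraries. Cd34 was highest in the 6 Sca-1neg libraries, at 468 to 1130 CPM, where the members summed to 67.1 to 1930 CPM. In untraced Sca-1+ the members summed to 7723 and 8420 CPM. Lhx2, a bulge stem cell factor, had a log2 fold change of -2.69 ± 0.36 (edgeR adjusted p = 0.003374) and Lgr5 one of -2.31 ± 0.41 (0.0179). The part of these cell types in the members' difference was not tested.

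Among untraced cells, the Sca-1+ fraction was compared with the Sca-1neg fraction. Most blood vessel and shared genes lay higher in Sca-1+, while none of the 4 lymphatic members lay above Sca-1neg without overlap. Of the 35 members, 29 lay above the Sca-1neg libraries without overlap, against 19.9% of all genes, 1 (Mmrn1) lay below and 5 overlapped (Cldn5, Gpihbp1, Flt4, Lyve1 and Prox1). The adjusted p passed for 6 members, all higher, against 3.68% of all genes higher and 2.06% lower. The median log2 fold change was 5.08 over the 31 blood vessel and shared members and -0.61 over the 4 lymphatic members, against -0.13 over all genes.

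The 6 members that rose were Sox7, Sox17, Aplnr, Rasip1, Sparcl1 and Fli1. Sox7 stood at 25.2, 24.3 and 21.9 CPM in untraced Sca-1neg against 78.7 and 81.0 CPM in untraced Sca-1+, a log2 fold change of 1.75 ± 0.14 (edgeR adjusted p = 0.001157). Sox17, an arterial SOX factor, had 1, 3 and 0 counts in untraced Sca-1neg against 14.8 and 16.7 CPM. Its log2 fold change of 8.75 ± 1.27 (edgeR adjusted p = 0.005253) rests on those few counts and is rough.

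Aplnr, the apelin receptor of venous and sprouting endothelium, stood at 0.165, 0.767 and 0.0488 CPM against 23.8 and 44.8 CPM (log2 fold change 6.71 ± 1.28, edgeR adjusted p = 0.0182). Sparcl1, a matricellular protein, stood at 1.07, 1.11 and 1.22 CPM against 102 and 120 CPM (log2 fold change 6.61 ± 1.41, edgeR adjusted p = 0.0364). For both genes the groups lay far apart. Rasip1 had a log2 fold change of 3.89 ± 0.76 (edgeR adjusted p = 0.0211). Fli1 had one of 4.45 ± 1.06 (edgeR adjusted p = 0.0423).

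The calls of Sox7 and Sox17 held in all 11 cases when 1 library at a time was left out. Those of Aplnr and Rasip1 were lost in 4 of 11 cases (without either untraced Sca-1+ library, or without untraced Sca-1neg replicate 1 or 3). Those of Sparcl1 and Fli1 were each lost in 8 of 11. Sparcl1 kept its call only without any 1 of the Sca-1neg tdT+ libraries, and Fli1 only without replicate 2 or 3 of that group or untraced Sca-1neg replicate 2. The log2 fold changes stayed between 6.20 and 8.24 for Aplnr, 3.68 and 4.32 for Rasip1, 6.53 and 6.71 for Sparcl1 and 4.03 and 5.73 for Fli1.

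Pecam1 stood at 7.98, 19.6 and 10.3 CPM in untraced Sca-1neg against 688 and 728 CPM in untraced Sca-1+. Its log2 fold change was 5.81 ± 1.82 and did not pass (edgeR adjusted p = 0.12). The Sca-1neg value of 19.6 CPM belongs to replicate 2, the library with high Alb.

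When the 3 libraries with high Alb were left out, 29 of the 35 members passed, all higher, against 7.08% of all genes, and the members' median log2 fold change was 5.77. All 8 receptors, all 6 transcription factors, all 4 secreted or matrix genes, 8 of 9 junction and surface genes (all but Cldn5) and 3 of 4 vessel function genes (all but Gpihbp1) were among them. The 4 lymphatic genes were not. Pecam1 then had a log2 fold change of 6.33 ± 0.42 (edgeR adjusted p = 2.294e-05). With DESeq2's Wald test on all 11 libraries, 15 members passed, all higher, against 8.48% of all genes.

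The number of members that passed moved with single libraries, while the sign of their median did not. Leaving out 1 library at a time gave 0 to 15 members past the threshold in traced against untraced Sca-1+ cells, all lower, against 0.589% to 3.34% of all genes. It gave 0 without any 1 of 6 libraries (each of the 5 Sca-1+ libraries and untraced Sca-1neg replicate 1), 1 without traced Sca-1neg replicate 1 or untraced Sca-1neg replicate 3, 3 without untraced Sca-1neg replicate 2, 12 without the library labelled replicate 2 of Sca-1neg tdT+ and 15 without traced Sca-1neg replicate 3. In Sca-1+ against Sca-1neg untraced cells it gave 2 to 20, all higher, against 0.444% to 5.28% of all genes: 2 without either untraced Sca-1+ library or without untraced Sca-1neg replicates 1 or 3, 4 without any 1 of the traced Sca-1+ libraries, and 20 without the library labelled replicate 2 of Sca-1neg tdT+ or without replicate 3 of that group. The median of the members stayed between -5.11 and -4.60 in the first comparison and between 4.46 and 5.73 in the second.

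The 4 lymphatic members had an order of their own. The 7 non-members in a list of 11 lymphatic endothelial genes did not all share it. In Sca-1+ against Sca-1neg untraced cells their median log2 fold change was 1.66, against -0.61 for the 4 members. Of the 7, Nrp2 and Sema3d passed as higher and Tbx1 as lower, against 3.68% and 2.06% of all genes. Mmrn1, a multimerin stored in lymphatic endothelium and platelets, stood at 23.3, 28.0 and 24.4 CPM in untraced Sca-1neg (25.2 ± 2.44, SD, n = 3) and at 0.952, 1.55 and 0.110 CPM in traced Sca-1neg. It stood at 1.39, 0.0568 and 3.92 CPM in traced Sca-1+ and at 19.2 and 11.2 CPM in untraced Sca-1+. Mmrn1 thus lay higher in all 5 untraced libraries than in all 6 traced ones, the library labelled replicate 2 of Sca-1neg tdT+ included, where the tracer was at the untraced level. Neither difference passed: the log2 fold change was -4.84 ± 1.21 in Sca-1neg (edgeR adjusted p = 0.289) and -3.09 ± 1.16 in Sca-1+ (0.262). Of all genes, 10.9% were lower without overlap in Sca-1neg and 17.2% in Sca-1+.

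Prox1 was highest in the 3 libraries with high Alb, at 102 and 37.7 CPM in traced Sca-1neg replicate 1 and the library labelled replicate 2, and at 68.1 CPM in untraced Sca-1neg replicate 2. It ran from 0.506 to 9.15 CPM in the other 8 libraries. Its log2 fold change between Sca-1+ and Sca-1neg untraced cells was -1.80 ± 1.87 with all libraries (edgeR adjusted p = 0.647) and 0.98 ± 0.58 without the 3 (0.388), so its sign turned, as it did without untraced Sca-1neg replicate 2 alone (0.93). In traced against untraced Sca-1+ cells it was -3.36 ± 1.88 (edgeR adjusted p = 0.495), and -3.42 ± 0.56 without the 3 (0.004259).

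Lyve1, the hyaluronan receptor of lymphatic and liver sinusoidal endothelium, stood at 8.64, 14.5 and 9.49 CPM in untraced Sca-1neg and 11.4, 11.7 and 2.98 CPM in traced Sca-1neg. It stood at 0.240, 3.18 and 3.61 CPM in traced Sca-1+ and 4.40 and 10.97 CPM in untraced Sca-1+. The log2 fold change was -0.50 ± 0.92 between Sca-1+ and Sca-1neg untraced cells (edgeR adjusted p = 0.818) and -1.72 ± 0.91 between traced and untraced Sca-1+ cells (0.439). Flt4 stood at 44.3, 10.6 and 27.8 CPM in the 3 libraries with high Alb, at 8.89 and 10.1 CPM in untraced Sca-1neg replicates 1 and 3, at 0.716 CPM in traced Sca-1neg replicate 3, at 0.681 to 3.72 CPM in traced Sca-1+ and at 12.6 and 14.8 CPM in untraced Sca-1+.

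As a share of the summed member RPKM, the 4 lymphatic genes took 20.1% to 21.5% in the 3 untraced Sca-1neg libraries and 24.3% in traced Sca-1neg replicate 1. Different genes made up these like shares. Prox1 stood at 12.1 RPKM in traced replicate 1 and 8.12 in untraced replicate 2, both with high Alb, and at 0.571 and 0.334 in untraced replicates 1 and 3. Mmrn1 stood at 3.97, 4.77 and 4.15 RPKM in untraced Sca-1neg and 0.162 in traced replicate 1. The 4 lymphatic genes took 2.45% in the library labelled replicate 2 of Sca-1neg tdT+, 6.53% in replicate 3, 1.15% to 3.37% in traced Sca-1+ and 0.465% to 0.485% in untraced Sca-1+. In untraced Sca-1+ the low shares go with high blood vessel genes: Flt4 and Mmrn1 themselves were higher there than in traced Sca-1+.

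**Figure D3:**
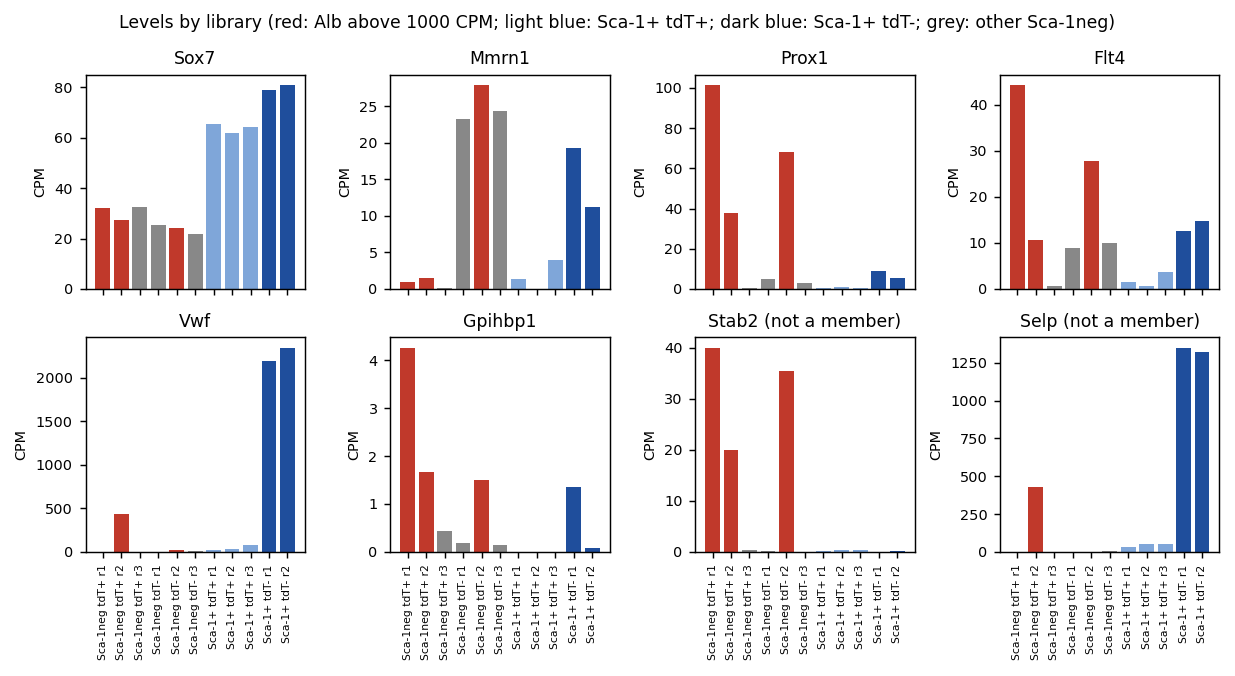
CPM of 6 members and of Stab2 and Selp, which are not members, in each library (bars, 1 per library, no error). Mmrn1 is high in the 5 untraced libraries, Prox1 and Stab2 in the 3 libraries with high Alb, Vwf and Selp in the untraced Sca-1+ libraries and the library labelled replicate 2 of Sca-1neg tdT+, and Sox7 in all Sca-1+ libraries.

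The 3 libraries with high Alb did not share 1 endothelial profile. For the 30 blood vessel and shared members other than Sox7, each library was set against the mean of the untraced Sca-1+ libraries. Members with 0 counts in a library were left out there. That left 29 in each traced Sca-1+ library and in untraced Sca-1neg replicate 3, and 28 in traced Sca-1neg replicate 3. In the library labelled replicate 2 of Sca-1neg tdT+, the median log2 difference was -1.96 with an interquartile range of 0.41, so most members lay close to 3.88-fold below. In traced Sca-1neg replicate 1 and untraced Sca-1neg replicate 2 the medians were -4.40 and -4.30 with interquartile ranges of 2.74 and 1.97. The traced Sca-1+ libraries had medians from -5.77 to -4.76 and interquartile ranges from 0.95 to 1.37, and the other 3 Sca-1neg libraries had interquartile ranges from 1.72 to 3.40.

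Ratios to Cdh5 (RPKM over RPKM within a library), a reference chosen after the data were seen, also differed among these libraries. Vwf was at 1.30 times Cdh5 in the library labelled replicate 2 of Sca-1neg tdT+ and at 1.58 and 1.46 in the untraced Sca-1+ libraries, but at 0.115 and 0.235 in traced Sca-1neg replicate 1 and untraced Sca-1neg replicate 2. Kdr was at 0.189 in the first, at 0.136 and 0.118 in the untraced Sca-1+ libraries, and at 1.44 and 0.463 in the other libraries with high Alb. Emcn, a venous and capillary sialomucin, was at 0.362, at 0.319 and 0.196, and at 0.0152 and 0.113 in the same order. In traced Sca-1neg replicate 1 the ratio of Prox1 was 5.48 and that of Flt4 was 2.44. Prox1 was at 1.69 in untraced Sca-1neg replicate 2, at 0.216 in the library labelled replicate 2 of Sca-1neg tdT+ and at 0.0126 and 0.00633 in untraced Sca-1+. In untraced Sca-1neg replicates 1 and 3, without high Alb, Flt4 was at 0.864 and 0.711 and Lyve1 at 2.37 and 1.89. In untraced Sca-1neg replicate 2 these 2 genes were at 0.705 and 1.04. Kdr was at 0.464 and 0.271 in replicates 1 and 3, Vwf at 0.0773 and 0.454 and Prox1 at 0.458 and 0.195. Ratios unlike those of untraced Sca-1+ were thus not particular to libraries with high Alb. Ratios were taken only where Cdh5 reached 1 RPKM, which leaves out traced Sca-1neg replicate 3.

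**Figure D4:**
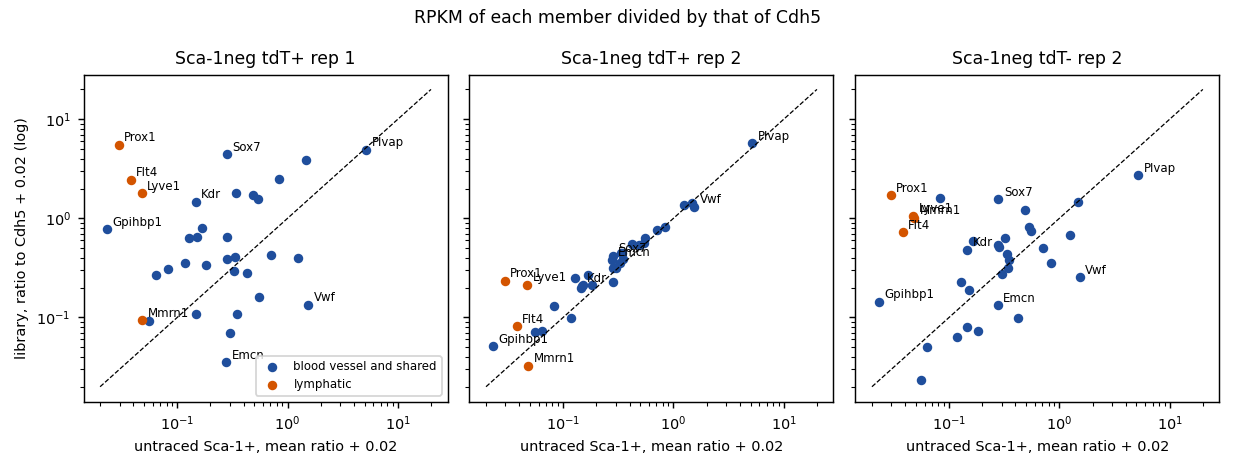
RPKM of each member divided by that of Cdh5 in the 3 libraries with Alb above 1000 CPM (vertical, 1 panel per library) against the mean ratio in the 2 untraced Sca-1+ libraries (horizontal), both with 0.02 added, on log axes, with the dashed line marking equality. In the library labelled replicate 2 of Sca-1neg tdT+ the blood vessel genes (blue) lie along the line, while in the other panels they scatter and the lymphatic genes (orange) Prox1, Flt4 and Lyve1 lie far above it. These lymphatic genes lie above the line in the library labelled replicate 2 too, but by less. Untraced Sca-1neg replicates 1 and 3, without high Alb, are not drawn, and there too these ratios were above those in untraced Sca-1+.

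Some genes of liver cells that are not members differed between these libraries and the rest, and Stab2, Clec4g, Oit3, Cd209b and Clec4f are named after their values were seen. Stab2, a scavenger receptor of liver sinusoids, stood at 40.1, 20.1 and 35.5 CPM in the 3 libraries with high Alb and at or below 0.441 CPM in the other 8. Of the 12 liver sinusoidal genes, Stab2 and Oit3 were above 1 CPM in each of the 3 and under 1 CPM in the other 8. Clec4g stood at 7.84 and 3.38 CPM in traced Sca-1neg replicate 1 and untraced Sca-1neg replicate 2, at 0.536 CPM in the library labelled replicate 2 of Sca-1neg tdT+ and at or below 0.0516 CPM elsewhere, and Cd209b was under 1 CPM in all 11. The summed list ran from 228 to 244 CPM in the 3, from 318 to 529 CPM in untraced Sca-1+ and from 49.9 to 124 CPM in the other 6. Stab1, a scavenger receptor that other vessels also make, stood at 209 and 350 CPM in untraced Sca-1+. The 15 hepatocyte genes summed to 13260 to 27560 CPM in the 3 and 9.46 to 99.7 CPM in the other 8, and 9 Kupffer cell genes to 129 to 175 CPM in the 3. The Kupffer cell sum was 19.6 and 249 CPM in untraced Sca-1+, where the defining gene Clec4f was under 1 CPM. The part of these cells in the members' levels was not tested.

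**Figure D5:**
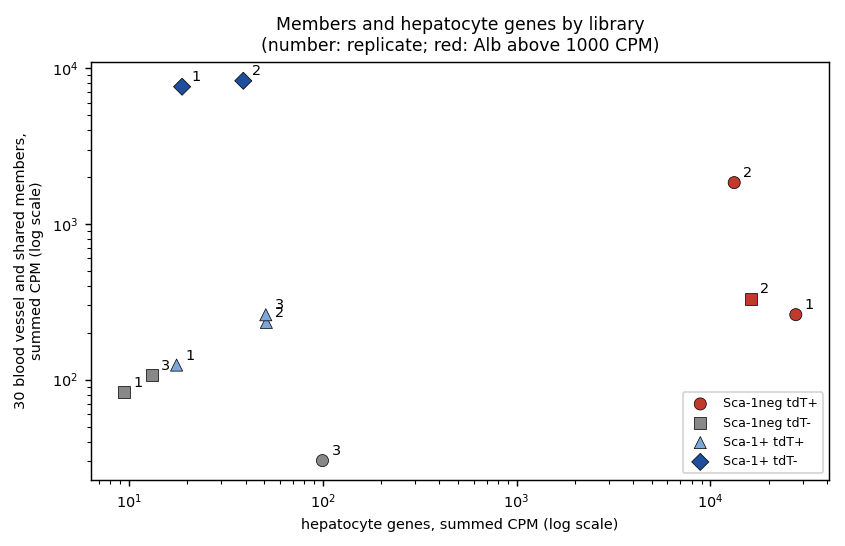
Summed CPM of the 30 blood vessel and shared members other than Sox7 (vertical) against the summed CPM of 15 hepatocyte genes (horizontal) in each library, on log axes, with marker shape for the group, red for Alb above 1000 CPM and the number for the replicate. The untraced Sca-1+ libraries are highest at 7599 and 8297 CPM with hepatocyte sums of 18.8 and 39.0 CPM, and the 3 red points at the right span 261 to 1841 CPM.

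Genes of venules and capillaries, from lists that hold no member, went with the untraced Sca-1+ libraries in part. Genes that lay higher in both untraced Sca-1+ libraries than in any other are counted within each list, here and below. The share of all genes with that order was not computed, so these counts only describe the lists. Of 9 venous genes, 5 (Selp, Sele, Ackr1, Vcam1 and Nr2f2) lay higher in both untraced Sca-1+ libraries than in any other. The selectin Selp, which venules show to leukocytes, stood at 1350 and 1319 CPM there, at 428 CPM in the library labelled replicate 2 of Sca-1neg tdT+, at 33.1 to 52.1 CPM in traced Sca-1+ and at 1.21 to 2.71 CPM in the other 5 libraries. The other 4 did not follow. Lrg1 was highest in traced Sca-1neg replicate 1, at 460 CPM against 285 and 418 CPM in untraced Sca-1+, as was Il1r1, at 148 CPM against 131 and 111 CPM. Adgrg6 was highest in traced Sca-1neg replicate 3, at 354 CPM against 167 and 185 CPM. Ephb4, an ephrin receptor of veins, stood at 197 to 207 CPM in untraced Sca-1neg and 188 and 220 CPM in untraced Sca-1+. It was the 1 venous gene that passed in traced against untraced Sca-1+ cells (log2 fold change -1.06 ± 0.15, edgeR adjusted p = 0.004133).

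Of 13 genes of capillaries and lipid uptake, 8 lay higher in both untraced Sca-1+ libraries than in any other, among them the water channel Aqp1, at 2294 and 2256 CPM there and 574 CPM in the library labelled replicate 2 of Sca-1neg tdT+. The other 5 were Rgcc, Aqp7, Fabp5, Lpl and Btnl9. In traced against untraced Sca-1+ cells Tcf15 and Meox1 fell and Rgcc rose. Rgcc, a regulator of the cell cycle, stood at 39.5, 61.6 and 58.6 CPM in traced and 23.2 and 11.2 CPM in untraced cells (log2 fold change 1.63 ± 0.35, edgeR adjusted p = 0.0325). Of 13 arterial genes, 3 (Dll4, Bmx and Fbln5) lay higher in both untraced Sca-1+ libraries than in any other, and 10 did not. The list of 11 lymphatic genes holds the 4 lymphatic members. In it 3 non-members (Nrp2, Itga9 and Foxc2) had that order and 8 genes did not. Nrp2 stood at 189 and 207 CPM in untraced Sca-1+ and Foxc2 at 2.28 and 2.60 CPM. Of 11 pericyte and smooth muscle genes, 1 (Tagln) lay higher in both untraced Sca-1+ libraries than in any other. The list summed to 479 and 455 CPM there and to 404 to 761 CPM in the other 9. In untraced Sca-1+ Cspg4 stood at 99.4 and 197 CPM, Notch3 at 101 and 97.1 CPM and Ndufa4l2 at 269 and 139 CPM, while Rgs5, Abcc9, Myh11 and Higd1b were under 1 CPM. The 8 platelet genes summed to 7.61 to 29.2 CPM over all libraries. Genes of these lists that neither passed a test nor were among the highest are named after their values were seen.

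Other endothelial genes, a list of 35 that holds no member, went the same way as the members in part. In traced against untraced Sca-1+ cells 12 of 35 passed, all lower, against 2.34% of all genes, with a median log2 fold change of -3.31. They were led by the endothelial GTPase Rhoj (log2 fold change -2.86 ± 0.30, edgeR adjusted p = 0.000655), at 12.4, 10.3 and 13.2 CPM in traced and 78.6 and 95.8 CPM in untraced cells. In Sca-1+ against Sca-1neg untraced cells 10 of 35 passed, all higher, against 3.68% of all genes, with a median of 2.77. Calcrl, the receptor of adrenomedullin, led them (log2 fold change 3.03 ± 0.39, edgeR adjusted p = 0.003831). The list's summed level was 5295 and 5696 CPM in untraced Sca-1+ and 2242 to 3615 CPM in the other 9 libraries, a narrower span than that of the members. It holds Klf4 and Cav1, which keratinocytes also express.

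In the Sca-1neg gate, no member passed between traced and untraced cells by edgeR's quasi-likelihood test, against 0.0542% of all genes higher and 0.00985% lower, and 8 members had an unadjusted p under 0.05, against 8.33% of all genes. The members' median log2 fold change was 1.77, and without the library labelled replicate 2 of Sca-1neg tdT+ it was -0.32. With DESeq2's Wald test 3 members passed as higher and 1 as lower, against 1.71% and 0.256% of all genes. Pecam1 stood at 5.21, 175 and 1.05 CPM in traced Sca-1neg and 7.98, 19.6 and 10.3 CPM in untraced Sca-1neg, a log2 fold change of 2.26 ± 1.52 (edgeR adjusted p = 0.746). Cdh5 stood at 9.29, 87.4 and 0.386 CPM against 5.25, 20.1 and 7.22 CPM, a log2 fold change of 1.57 ± 1.39 (edgeR adjusted p = 0.825). Both genes were highest in the library labelled replicate 2 of Sca-1neg tdT+ and lowest in traced replicate 3.

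After removal of the 3 libraries with high Alb, 1 traced Sca-1neg library and 2 untraced Sca-1neg libraries remained, and the lone library was taken to vary as much as the rest. The members' median was then -2.52, and 2 members passed, both lower (Sox18 and Kdr), against 0.0745% of all genes. Sox18 had 0 counts in that 1 library, against 1.47 and 1.66 CPM. Kdr stood at 0.165 CPM, against 5.23 and 4.196 CPM.

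Among traced cells, Sca-1+ was compared with Sca-1neg. Sox7 rose and Gpihbp1 fell, against 5.94% of all genes higher and 6.73% lower, and the members' median log2 fold change was -1.71. Sox7 stood at 32.2, 27.3 and 32.5 CPM in traced Sca-1neg against 65.6, 61.9 and 64.1 CPM in traced Sca-1+, a log2 fold change of 1.06 ± 0.13 (edgeR adjusted p = 0.0005978). Gpihbp1 stood at 4.26, 1.66 and 0.441 CPM in traced Sca-1neg and had no count in traced Sca-1+, where it was at least 52.7-fold lower than the mean of 2.12 CPM (edgeR adjusted p = 0.029). That bound was 26.1-fold without traced Sca-1neg replicate 1 and 26.2-fold without traced Sca-1+ replicate 1. The call was lost without either of these or without traced Sca-1+ replicate 2 or 3. Leaving out both traced Sca-1neg libraries with high Alb left replicate 3 alone, at 0.441 CPM or 8 counts of Gpihbp1. The bound was then lower still, 0.441 CPM against the 0.0402 CPM allowed in traced Sca-1+, so its size rests mainly on libraries with high Alb. Without the library labelled replicate 2 of Sca-1neg tdT+ the median was 0.63 and 6 members passed, 5 higher and 1 lower, against 4.78% and 5.65% of all genes. Without traced Sca-1neg replicate 3, 9 passed, 1 higher and 8 lower, against 4.62% and 7.09%. The 2 fits thus called members mostly in opposite directions. Without the 3 libraries with high Alb, 18 members passed, all higher, against 5.18% of all genes, with a median of 3.25. They were compared with traced Sca-1neg replicate 3 alone, the library with the lowest summed level, and Gpihbp1 was no longer among those that passed (edgeR adjusted p = 0.111).

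The difference of the traced-untraced contrast between the gates passed for 1 member, Sox17, against 0.468% of all genes lower and 0.0148% higher. Its log2 value was -9.81 ± 1.52 (edgeR adjusted p = 0.021): Sox17 stood at 0.771, 5.03 and 0.661 CPM in traced Sca-1neg cells against 1, 3 and 0 counts in untraced ones, while in the Sca-1+ gate the traced libraries lay below the untraced ones. The value of 5.03 CPM belongs to the library labelled replicate 2, where the tracer was at the untraced level. Leaving out 1 library at a time gave adjusted p-values over the threshold in 5 of 11 cases (without traced Sca-1+ replicate 1, either untraced Sca-1+ library, or untraced Sca-1neg replicate 1 or 3). Without the 3 libraries with high Alb, 8 members passed, all lower, against 0.955% of all genes.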

How the data were processed

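Gene counts of 11 libraries were deposited. Per the submitters' processing notes the authors used STAR, featureCounts, FastQC, DESeq2 1.18.1 and bcl2fastq 2.20.0.422, with build mm10. Neither the annotation release nor the strand setting is given in the sources used here. Symbols, exon lengths and overlaps came from GENCODE M21 (GRCm38).

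The deposited counts were fitted with edgeR 4.0.16 (R 4.3.3): TMM scaling, a filter on low counts by group (20307 genes kept), 4 group means, the quasi-likelihood test, and Benjamini-Hochberg adjustment over all genes at 0.05. The tracer entry, no mouse gene, stayed out of library sizes and tests. Totals of 17409131 to 46542177 counts set the precision, and a count of 0 allows up to 3 counts (counting error only). RPKM is TMM-scaled CPM per kilobase of exon. SE is the log2 fold change over the square root of F. The steps were tested on simulated data.

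Fold changes are given for up to 12 members past the threshold per comparison, and for Pecam1, Lyve1, Prox1 and Fli1 in both comparisons with untraced Sca-1+ cells. From other lists, the genes with the highest level or lowest p are named. The members and lists were chosen with earlier results of these data known. Alternatives included DESeq2 1.42.0, other scalings and filters, a replicate block, each library left out, and the 3 libraries with Alb above 1000 CPM left out. Comparisons within a gate or among untraced cells share libraries.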

Additional observations from a re-analysis of the deposited data

Results flagged for a closer look

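Sox17 differed between the gates in its traced against untraced contrast by the test of that difference itself, with a log2 value of -9.81 (SE 1.52, edgeR adjusted p = 0.021). Libraries labelled traced exceeded the untraced ones in 3 of 3 cases in the Sca-1neg gate and lay below them in 3 of 3 in the Sca-1+ gate. The Sca-1neg library labelled replicate 2 had the tracer at the untraced level, 2.05 CPM. It held 5.03 CPM of Sox17, against 0.771 and 0.661 CPM in traced Sca-1neg replicates 1 and 3. That library and replicate 1 are also among those with Alb above 1000 CPM. The untraced Sca-1neg libraries held 1, 3 and 0 counts, so the size is rough, and Sox17 exons overlap those of Gm37587. The adjusted p ranged from 2.186e-09 to 0.0837 over 18 alternatives. It passed the threshold in 13 of them.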

How the results depend on the processing

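The direction of the members' median held under all alternatives in both comparisons with untraced Sca-1+ cells, and their counts did not. Without the 3 libraries with Alb above 1000 CPM, the median turned to -2.52 in traced against untraced Sca-1neg cells and to 3.25 in Sca-1+ against Sca-1neg traced cells, and the difference between gates moved to -2.58; genes past the threshold were 38, 1286, 2073 and, for the difference between gates, 220, and members 2, 31, 29, 18 and 8 (comparisons in the order traced against untraced in Sca-1neg, the same in Sca-1+, Sca-1+ against Sca-1neg in untraced, the same in traced, and the difference). In that order all libraries gave 13, 556, 1166, 2572 and 98 genes and 0, 2, 6, 2 and 1 members. DESeq2's Wald test gave 400, 1449, 2898, 4652 and 836 genes and 4, 17, 15, 5 and 17 members. With only the 2 groups compared, 0, 957, 2003 and 1584 genes passed, and 30, 23 and 1 members from the second comparison on. With no filter, 81 genes passed in the first and 234 in the last, and 1 member in the first and 2 in the third. At least 1 CPM in 2 libraries gave 10 members in the third, and DESeq2's size factors 156 genes in the last.

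Leaving out 1 library at a time gave 0 to 14, 145 to 791, 116 to 1665, 1591 to 3040 and 26 to 347 genes, 0 to 1, 0 to 15, 2 to 20, 1 to 9 and 0 to 13 members, and medians of -0.32 to 2.70, -5.11 to -4.60, 4.46 to 5.73, -2.25 to 0.63 and -7.60 to -4.16. Without the 3 libraries Pecam1 and Cdh5 turned to -3.12 and -4.0 in Sca-1neg, and to -2.0 and -1.15 without the library labelled replicate 2 of Sca-1neg tdT+. In untraced cells Prox1 turned to 0.98 without the 3 and 0.93 without Sca-1neg tdT- replicate 2, and Lyve1 to 0.00 without Sca-1+ tdT- replicate 1; leaving out 1 library at a time reached 2.83 for Pecam1 and 2.38 for Cdh5 at the upper end, and -2.33 for Prox1 and -1.26 for Lyve1 at the lower. Among untraced Sca-1+ libraries the Vwf to Pecam1 ratio was 1.24, 3.21 without length and 1.52 over Cdh5, a reference chosen after seeing the data; for Kdr it was 0.104, 0.15 and 0.127. The cause of these changes was not tested. Sox7 in both Sca-1 comparisons and Sox17 in untraced cells passed under all 19 alternatives.

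Whether replicate numbers pair the samples was not settled. The labels do not say that a number marks shared mice, and number 1 goes with the age of 29 weeks in every group. Of 15 same-numbered pairs, 7 had correlations of deviations above 0.1 (range -0.415 to 0.589), among them both pairs in the Sca-1+ gate (0.15 and 0.138), so the numbers were not taken as pairs. With the replicate number as a block, members past the threshold were 1, 3, 6, 3 and 4, genes 15, 502, 1027, 2571 and 123, and medians 1.08, -4.65, 4.63, -0.81 and -5.94.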
